A study of Mus musculus with 13 samples.

Results

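The RNA of 10 genes of interleukin-6 signalling and of neighbouring receptors was followed across normal plasma cells and mouse models of multiple myeloma, a cancer of plasma cells. The genes were chosen by symbol, 10 of the 22997 symbols counted. They are the interleukin-6 receptor chains Il6ra and Il6st, the kinases Jak1 and Jak2, the transcription factor Stat3, the feedback inhibitors Socs1 and Socs3, the insulin-like growth factor receptor Igf1r, and the receptor chains Il9r and Il10ra. All 10 passed the filter on low counts. Each of 13 bulk RNA libraries came from 50000 bone marrow cells, on a C57/BL6 background, sorted as positive for CD138 and CD45.2 and negative for B220. CD138 is a surface protein of plasma cells. WT (3 libraries) was wild-type. V (3) carried Vκ*MYC, a MYC transgene that becomes active in B cells of the germinal centre, together with IgG1-Cre, which acts in B cells that express IgG1. VQ (5) carried the same transgene and Cre plus Nras LSL Q61R/+, an allele that stays silent until Cre removes its stop, and was sampled in transplant recipients of the lines D1 (2 recipients), D4 (1) and D5 (2). The group named tVk12653 (2) was sampled in recipients of 1 transplanted line, so its spread is that between recipients alone. Ages were not given in the sources used here, and gene counts do not show the Q61R change itself. Genotype and transplantation cannot be told apart, because every VQ and tVk12653 library came from a recipient and no WT or V library did. Where the labels do not name separate mice, p-values measure only the spread between these libraries.

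Interleukin-6 is a growth and survival factor of plasma cells. It binds the chain encoded by Il6ra, which then joins Il6st, the signalling chain shared by the whole cytokine family. Kinases held by Il6st, chiefly JAK1 with JAK2 and TYK2, phosphorylate STAT3, which enters the nucleus and switches on genes such as Socs3, whose product blocks the kinases in turn. Igf1r encodes a receptor tyrosine kinase that works through other adaptors and is a known growth receptor of myeloma cells. The receptors of interleukin-9 and interleukin-10 also signal through JAK1. Only RNA was measured here, not protein or phosphorylation.

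Short stretches upstream of 3 of the genes are shown because they hold, or lack, the letters that STAT and MYC proteins are known to bind. They come from RefSeq (GRCm38.p6), in which 9 of the 10 genes matched a promoter entry. Capitals mark TTCNNNGAA, the STAT-type motif, or CACGTG, the motif of MYC and related factors. Both motifs read the same on either strand, and no window of these genes held both. The Socs3 stretch is chr11:117969502-117969530 on the minus strand and its motif begins 154 bases before the listed start, inside the annotated gene span. The Il6ra stretch is chr3:89913205-89913230 on the minus strand, with a motif that begins 24 bases before the start. The Igf1r stretch is the whole window of 250 bases before the start, chr7:67952007-67952256 on the plus strand, and has neither motif.
Socs3: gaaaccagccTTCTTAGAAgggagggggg
Il6ra: tgctgtgtgtCACGTGcatgtgggaa
Igf1r: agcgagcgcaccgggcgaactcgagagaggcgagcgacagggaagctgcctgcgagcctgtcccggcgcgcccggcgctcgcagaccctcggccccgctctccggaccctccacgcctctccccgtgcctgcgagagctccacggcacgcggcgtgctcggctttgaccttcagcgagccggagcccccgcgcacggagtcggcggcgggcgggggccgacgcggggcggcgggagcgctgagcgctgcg
TTCNNNGAA was in 1 of the 9 windows of these genes and in 7.02% of all 32851 windows of 250 bases. CACGTG was likewise in 1 of 9 and in 6.02% of all windows. These matches describe letters in a window, not sites of binding.

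The libraries held 2096815 to 8512281 counts, so a floor of 3 counts equals 0.326 to 1.48 CPM (the usual unit of level, which relates a gene's counts to the library's total), depending on the library. CPM here are scaled by trimmed means of M values. Of the plasma cell markers, Sdc1, Prdm1, Irf4 and Xbp1 were present in every library (Sdc1 at 365 to 1427 CPM). Jchain was at 33540 to 64460 CPM in WT and V and at 44.5 to 6740 CPM in the 7 transplant libraries, and Cd38 was at 0 in 4 of these 7. Neutrophil, T and NK cell and B cell markers had lower sums in the transplant libraries, while monocyte and dendritic cell sums overlapped. The summed neutrophil markers (14 genes, led by S100a9 and Ngp) ranged from 3486 to 9713 CPM in WT, 1897 to 3794 in V, 92.5 to 1299 in VQ and 104.7 to 166 in tVk12653. The summed T and NK cell markers (10 genes) ranged from 87.0 to 121 CPM in WT, 55.2 to 76.6 in V, 4.02 to 9.46 in VQ and 0.724 to 2.54 in tVk12653. For B cells (8 genes, led by Cd79b and Cd79a) the sums were 579.6 to 906 CPM in WT, 664 to 910.3 in V, 73.3 to 216 in VQ and 91.5 to 113 in tVk12653. In bulk RNA, fewer cells of a type and less RNA per cell cannot be told apart.

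**Figure D1:**
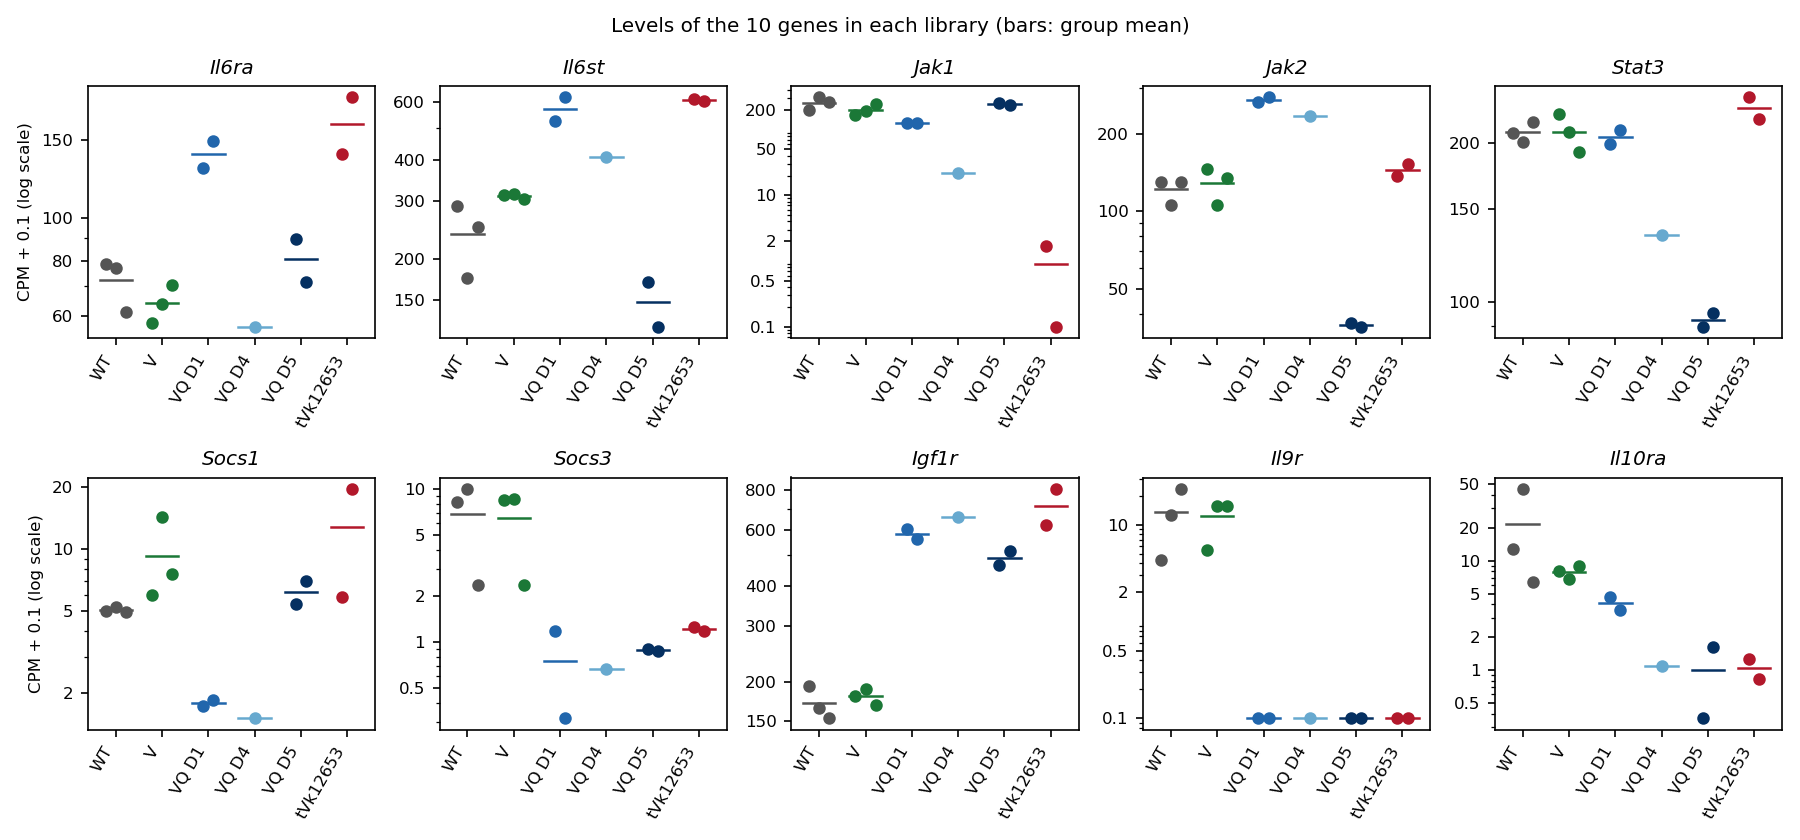
Level of each of the 10 genes in every library, in CPM plus 0.1 on a log axis that differs between panels; points are libraries and bars are group means. Igf1r is higher in all 7 transplant libraries than in the 6 of WT and V, Socs3, Il9r and Il10ra are lower in all 7, and Jak1 is near or at 0 in tVk12653.

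Across the 7 transplant and the 6 WT and V libraries, 4 of the 10 genes did not overlap: Igf1r was higher and Socs3, Il9r and Il10ra were lower. Of all 11933 genes tested, 20.4% did not overlap in this way (8.80% higher and 11.6% lower). The other 6 overlapped, and the lines differed among themselves. Adjusted p-values below are from edgeR's two-sided quasi-likelihood test adjusted by Benjamini-Hochberg across every gene tested, with 0.05 as the threshold, each change is given on the log2 scale with its standard error, and the value in brackets after it is its adjusted p. VQ against WT called 1 of the 10 higher and 3 lower, where 17.3% of all genes were higher and 15.1% lower (32.4% in all). VQ against V called 1 higher and 2 lower, where 15.6% of all genes were higher and 12.4% lower (28.0% in all). Against WT, tVk12653 had 3 higher and 4 lower, where 12.6% of all genes were higher and 15.7% lower (28.2% in all). Against V it had 2 higher and 2 lower, where 10.3% of all genes were higher and 12.9% lower (23.2% in all). The VQ and tVk12653 comparisons share their WT or V libraries. V against WT called 0 of the 10, and 0% of all genes. In tVk12653 against WT, with 7 of the 10 called, the median size of change was 1.71 for the 10 genes and 0.68 for all genes. In VQ against WT the corresponding medians were 0.81 and 0.70.

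Igf1r encodes the receptor of insulin-like growth factor 1 and lies at chr7:67952257-68233668 on the plus strand. Its levels were 194, 165 and 153 CPM in WT and 180.5, 189.6 and 168 CPM in V. The D1 recipients had 604.5 and 561 CPM, D4 had 661, the D5 recipients had 466 and 514.5, and tVk12653 had 623 and 809. Every transplant library lay above every WT and V library, and the means of the 4 lines spanned 1.46-fold, the narrowest range of the 9 genes detected in them. Igf1r rose in VQ by 1.80 ± 0.17 against WT (adjusted p = 0.000143) and by 1.72 ± 0.17 against V (0.000243). It also rose in tVk12653, by 2.07 ± 0.18 against WT (0.000172) and by 1.99 ± 0.18 against V (0.000243). These changes were called under each of the 22 alternatives run for each comparison. VQ and tVk12653 did not pass the test against each other, with a difference of -0.27 ± 0.18 (0.352). The summed stromal and endothelial markers were 90.4 to 134.5 CPM in WT, 67.6 to 115 in V, 40.4 to 438.7 in VQ and 15.6 to 16.4 in tVk12653, so they did not separate VQ from WT and V, and their part in the Igf1r result was not tested.

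Per kilobase of exon, Igf1r exceeded Insr, the insulin receptor gene with which it is related, in every library. The ratio of Igf1r to Insr was 1.64 to 1.99 in WT and 1.92 to 2.48 in V. It was 8.27 to 9.69 in D5, 9.39 in D4, 9.76 to 15.4 in tVk12653 and 87.6 to 325 in D1, where Insr itself was at 5.65 and 1.41 CPM. Of the other genes of the insulin-like growth factor axis, 7 of 11 were tested in VQ against WT, where 15.1% of all genes were called lower. Of these 7, 2 fell, with a list median of -0.66 against 0.08 for all genes. They were Igf1, the ligand (-4.85 ± 1.10, 0.0106), and Igfbp4, a binding protein (-3.95 ± 0.70, 0.003). Irs2, the most abundant of the list and an adaptor below the receptor, had a change of -0.30 ± 0.38 (0.575). In VQ against V neither Igf1 (-3.22 ± 1.11, 0.0588) nor Igfbp4 (-1.95 ± 0.67, 0.0546) passed. In tVk12653 against WT 1 rose and 2 fell, and the one that rose was Pik3r1, a regulatory subunit of phosphoinositide 3-kinase, by 1.89 ± 0.37 (0.00585). Pik3r1 was at 628 and 1080 CPM in tVk12653 and at 114 to 335 CPM in the other 11 libraries.

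Il6ra, the ligand-binding chain of the interleukin-6 receptor, lies at chr3:89869324-89913196 on the minus strand, and 242 of its exon bases overlap an antisense transcript. WT had 78.5, 77.0 and 61.1 CPM and V had 57.7, 63.7 and 70.4 CPM. D1 had 129.7 and 149 CPM, D4 had 56.6, D5 had 89.6 and 71.6, and tVk12653 had 139.8 and 188. The D1 and tVk12653 libraries were above all others, while D5 overlapped WT and D4 lay just below the lowest V library. Il6ra rose in tVk12653 by 1.18 ± 0.34 against WT (0.0287) and by 1.35 ± 0.34 against V (0.021). In VQ as a whole the change against WT was 0.43 ± 0.31 (0.305). The tVk12653 calls were lost in 5 of 13 fits that left out 1 library. Against WT the adjusted p was 0.0607 without WT replicate 1, 0.0651 without WT replicate 2, 0.0819 without WT replicate 3, and 0.0629 and 0.173 without either tVk12653 library. Against V it was 0.0653, 0.0609 and 0.0544 without V replicates 1, 2 and 3, and 0.0552 and 0.142 without tVk12653 replicates 1 and 2.

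Il6st, the shared signalling chain, lies at chr13:112464070-112506860 on the plus strand. Its levels were 289, 175 and 249.6 CPM in WT and 314, 315 and 304 CPM in V. D1 had 525 and 619.5 CPM, D4 had 409, D5 had 170.4 and 124.5, and tVk12653 had 612 and 606. D1, D4 and tVk12653 lay above all WT and V libraries, and D5 below them all. Il6st rose in tVk12653 against WT by 1.36 ± 0.43 (0.0406), a call kept in 12 of 22 alternatives and in 4 of the 13 that left out a library, with an adjusted p of at most 0.146. The change against V was 0.96 ± 0.43 (0.132), and that of VQ against WT was 0.73 ± 0.39 (0.177). Without line D5 the VQ change against WT was 1.08 (0.00402), and with 1 mean per group over the 13 libraries it was 0.45 (0.0193). Per kilobase of exon Il6st exceeded Il6ra in every library, by 1.35 to 1.48 times in D5, 5.63 times in D4 and 1.77 to 4.23 times in WT and V.

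Of the ligands of this cytokine family and their other receptors, 5 of 13 were tested. In VQ against WT 0 rose and 2 fell (list median -1.93), where 17.3% of all genes were called higher and 15.1% lower. Il27ra, the interleukin-27 receptor chain that pairs with Il6st, fell by 6.68 ± 0.99 (0.00122). Osm, the ligand oncostatin M, fell by 3.27 ± 0.80 (0.0124). In VQ against V Il27ra fell (-5.92 ± 0.98, 0.00287), and Osm did not pass (-0.77 ± 0.79, 0.49). Osm was at 10.5 to 49.8 CPM in WT and 3.91 to 4.44 CPM in V. The list in tVk12653 against WT had 0 higher and 1, Il27ra, lower (-2.98 ± 0.95, 0.0413). Il6 itself was at 0 to 0.569 CPM in WT and was not tested. Lifr, the leukaemia inhibitory factor receptor and the most abundant of the list, had a change of 3.67 ± 1.83 (0.156) in VQ against WT.

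Jak1 encodes a kinase used by the receptors of interleukin-6, interleukin-9 and interleukin-10 and lies at chr4:101151974-101265282 on the minus strand. WT had 199.6, 308.5 and 266 CPM and V had 166, 192.5 and 242 CPM. D1 had 124 and 127.5 CPM, D4 had 22.05, and D5 had 255 and 237. The first tVk12653 library had 1.62 CPM, from 7 counts, and the second had 0 counts, which allows up to 1.09 CPM. Jak1 was thus within the WT range in D5, below it in D1 and D4, and near 0 in tVk12653, with line means from 0.809 to 246 CPM. In tVk12653 Jak1 fell, with a change of -8.05 ± 1.24 against WT (0.00212) and of -7.69 ± 1.23 against V (0.00308), calls kept under each of the 22 alternatives. Without tVk12653 replicate 1, which leaves the library at 0, the fitted values were -13.24 and -12.90. VQ exceeded tVk12653 by 7.16 ± 1.21 (0.00874), the 1 call among the 10 genes in that comparison, where 5.97% of all genes were higher and 4.19% lower (10.2% in all). That call was lost in a fit of VQ and tVk12653 alone (0.182) and without either tVk12653 library (0.0563 and 0.0909). In VQ against WT the change of Jak1 was -0.89 ± 0.68 (0.341). With all 13 libraries fitted and 1 mean per group, in which the spread is that within groups and lines, it was -1.55 (2.42e-05), and -1.43 (0.000144) with the replicate block added.

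Jak2, the kinase that also serves the receptors of erythropoietin and growth hormone, lies at chr19:29251803-29313095 on the plus strand. Its levels were 130.3, 105 and 129 CPM in WT and 145.5, 106 and 135 CPM in V. D1 had 265 and 277 CPM, D4 had 234, D5 had 36.6 and 35.5, and tVk12653 had 137 and 152.5. D1 and D4 were above every WT and V library and D5 below every one. VQ as a whole therefore spread widely around WT, with a change of 0.61 ± 0.53 (0.407), and without line D5 the change was 1.07 (0.00125). In tVk12653 Jak2 did not pass the test against V (0.16 ± 0.60, 0.874).

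Divided by exon length, the levels of the kinase genes were set beside each other as shares of the RNA of Jak1, Jak2, Jak3 and Tyk2. Jak1 made up 33.9 to 48.0% of it in WT and 26.6 to 38.1% in V. It made up 18.4% in both D1 libraries, 4.8% in D4, 73.1 to 73.3% in D5 and 0 to 0.43% in tVk12653. Jak2 made up 23.6 to 31.8% in WT, 56.7 to 57.5% in D1, 73.2% in D4, 15 to 15.8% in D5 and 52.2 to 67.3% in tVk12653. D5 was thus the line with mostly Jak1 RNA, and the other 3 lines had more Jak2 than Jak1. The ratio of Jak1 to Jak2 was 1.07 to 2.04 in WT, 4.64 to 4.86 in D5, 0.321 to 0.325 in D1, 0.0656 in D4 and at most 0.00823 in tVk12653. Tyk2, the remaining kinase that Il6st can use, made up 29.1 to 39.2% in tVk12653 and 20.9 to 22.6% in WT, and its own change in VQ against WT was -0.78 ± 0.49 (0.244).

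**Figure D2:**
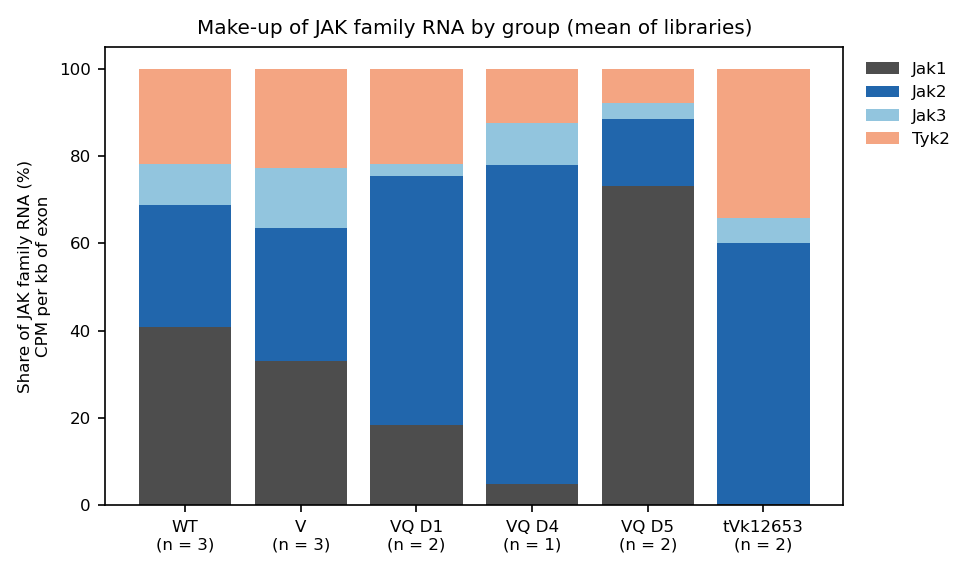
Mean share of each kinase in JAK family RNA, in percent of the summed CPM per kilobase of exon, for the 6 groups; bars are stacked to 100. Jak1 takes 40.9% in WT, 73.2% in VQ D5, 4.8% in VQ D4 and 0.215% in tVk12653.

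Stat3, the transcription factor at the end of the pathway, lies at chr11:100886806-100939594 on the minus strand and shares 72 exon bases with Stat5a on the other strand. WT had 209, 200.5 and 219 CPM and V had 227, 209 and 192 CPM. D1 had 199 and 211 CPM, D4 had 134, D5 had 89.6 and 95.1, and tVk12653 had 244 and 222. D4 and D5 lay below every other library, and D1 and tVk12653 were close to or within the range of WT and V. The VQ change against WT was -0.48 ± 0.24 (0.156), without line D1 it was -0.87 (0.00644), and with 1 mean per group over the 13 libraries it was -0.62 (7.06e-05). Of the other JAK and STAT genes, all 8 were tested in VQ against WT, where 17.3% of all genes were called higher and 15.1% lower. Of the 8, 0 rose and 3 fell (list median -0.95). These were Stat4, which serves interleukin-12 (-5.15 ± 0.46, 0.000129), Stat2, of the interferon response (-1.34 ± 0.32, 0.0106), and Stat6, of the interleukin-4 response (-1.10 ± 0.33, 0.0308). In tVk12653 against WT 1 rose and 3 fell: Stat5a rose by 1.24 ± 0.37 (0.0315), and Stat2, Stat4 and Stat6 fell.

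Among 15 genes known to be induced by STAT3, all were tested in VQ against WT, where 17.3% of all genes were called higher and 15.1% lower. Of the 15, 0 rose and 4 fell, with a list median of -0.23. The changes were -4.07 ± 0.86 for Cebpd (0.00639), -3.29 ± 0.90 for Fos (0.02), -2.61 ± 0.49 for Junb (0.00413) and -2.13 ± 0.69 for Bcl3 (0.0397), all of them transcription factors or cofactors. In VQ against V 0 rose and 2 fell, where 15.6% of all genes were called higher and 12.4% lower. Cebpd (-3.11 ± 0.84, 0.0219) and Bcl3 (-2.31 ± 0.70, 0.0336) fell there. Fos (-0.89 ± 0.83, 0.449) and Junb (-1.42 ± 0.48, 0.0501) did not pass. Fos was at 958 to 3421 CPM in WT and 294 to 444 CPM in V. In tVk12653 against WT 1 rose and 3 fell: the kinase gene Pim3 rose by 1.90 ± 0.33 (0.00322), and Cebpd, Junb and the survival gene Mcl1 fell. There 12.6% of all genes were called higher and 15.7% lower. Neutrophil markers fell in both comparisons against WT (12 of 14 in each), and their part in these results was not tested.

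Socs3 encodes an inhibitor that binds Il6st and the kinases and is itself switched on by STAT3. It lies at chr11:117966079-117970336 on the minus strand. Its levels were low throughout, at 8.10, 9.95 and 2.27 CPM in WT and 8.38, 8.54 and 2.27 CPM in V, from 7 to 27 counts. The D1 libraries had 1.08 and 0.217 CPM, D4 had 0.562, D5 had 0.795 and 0.767, and tVk12653 had 1.16 and 1.09, from 2 to 5 counts each. All 7 were below all WT and V libraries. Socs3 fell in VQ, with changes of -3.39 ± 0.73 against WT (0.00707) and -3.31 ± 0.73 against V (0.00997), calls kept in each of the 21 alternatives that tested it. In tVk12653 it also fell against WT (-2.56 ± 0.86, 0.0489), a call kept in 11 of 21 alternatives and in 4 of the 13 that left out a library, with an adjusted p of at most 0.201. Against V the value was -2.48 ± 0.86 (0.0618).

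Socs1, an inhibitor of JAK kinases best known from interferon signalling, lies at chr16:10783808-10785536 on the minus strand. WT had 4.93, 5.16 and 4.83 CPM and V had 5.92, 14.2 and 7.46 CPM. D1 had 1.615 and 1.74 CPM, D4 had 1.405, D5 had 5.30 and 6.90, and tVk12653 had 5.78 and 19.6. D1 and D4 were below all other libraries. No arm passed the test for Socs1, with -0.62 ± 0.68 for VQ (0.512) and 1.33 ± 0.75 for tVk12653 (0.209), both against WT. Of 15 other inhibitors (SOCS, PIAS and phosphatase genes, all tested), 1 rose and 5 fell in VQ against WT, and 1 rose and 6 fell in tVk12653 against WT. The shares of all genes called higher and lower were 17.3% and 15.1% in VQ, and 12.6% and 15.7% in tVk12653. The list medians were -0.31 and -0.71. The largest falls in VQ were those of the phosphatase genes Ptpn22, known from lymphocytes (-4.02 ± 0.56, 0.000968), Ptpn6, which encodes SHP-1 (-2.57 ± 0.50, 0.00465), and Ptpn1, which encodes PTP1B (-0.84 ± 0.18, 0.00707).

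Il9r encodes the interleukin-9 receptor chain, a growth receptor of T cells and mast cells, and lies at chr11:32187544-32205283 on the minus strand. WT had 4.225, 12.5 and 23.3 CPM of it and V had 5.42, 15.65 and 15.6 CPM, and it had 0 counts in all 7 transplant libraries. Measured against a floor of 3 counts per library, its mean was at least 16.5-fold lower in VQ than in WT and at least 15.1-fold lower than in V. For tVk12653 the bounds were at least 12.3-fold lower than WT and at least 11.2-fold lower than V. Without WT replicate 3, the highest, the bounds against WT were at least 10.4-fold lower for VQ and at least 7.71-fold lower for tVk12653. The adjusted p-values were 0.00205, 0.00287, 0.00868 and 0.0111. In tVk12653 the call against WT was lost without replicate 1 (0.0564), and that against V without replicate 1 (0.0683) or replicate 2 (0.0644).

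Il10ra encodes the ligand-binding chain of the interleukin-10 receptor, which acts through JAK1, TYK2 and STAT3, and lies at chr9:45253837-45269149 on the minus strand. WT had 12.7, 45.0 and 6.25 CPM and V had 7.89, 6.76 and 8.76 CPM. D1 had 4.575 and 3.48 CPM, D4 had 0.983, D5 had 0.265 and 1.53, and tVk12653 had 1.16 and 0.724. All 7 transplant libraries were below the WT and V libraries, and WT replicate 2 stood far above the rest. Il10ra fell against WT in VQ (-3.38 ± 0.80, 0.0109) and in tVk12653 (-4.43 ± 1.07, 0.0143). Without WT replicate 2 the values were -2.22 (0.0479) and -3.27 (0.0347). The VQ call was lost in a fit of VQ and WT alone (0.0571), and the tVk12653 call without replicate 1 (0.0906) or replicate 2 (0.108) of its own. Against V the values were -1.94 ± 0.78 for VQ (0.0889) and -2.99 ± 1.04 for tVk12653 (0.0625).

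Markers of several other cell types also fell. Summed erythroid markers were already lower in V (12.3 to 38.3 CPM) than in WT (112 to 591 CPM). Mean levels in WT and V were 6.775 and 6.397 CPM for Socs3, 13.36 and 12.22 for Il9r, and 21.3 and 7.804 for Il10ra. None of these genes was called in V against WT. In VQ against WT 12 of 14 neutrophil, 6 of 6 tested T and NK cell, 7 of 8 B cell, 7 of 9 tested monocyte and 9 of 9 erythroid markers fell, and in tVk12653 against WT these counts were 12, 5, 6, 7 and 9, with 1 monocyte marker higher. WT replicate 2, with the highest Il10ra, also had the highest sums of neutrophil (9713 CPM), T and NK cell (121 CPM) and erythroid markers (591 CPM) of the 13 libraries. Among T and NK cell markers, Ncr1 was at 0 in all 7 transplant libraries and Cd3d and Cd8a were at 0 in 6 of 7. These were low in WT and V too, at 0 to 4.79, 0.569 to 2.58 and 0 to 6.635 CPM. Cd4, Cd2 and Lck were at 0 in only 2 of 7. Cd2 reached 8.69 CPM in the transplant libraries, against 9.25 to 38.0 CPM in WT and V. The sums of monocyte markers, mostly Ly6c2, did not separate the groups, at 196 to 469 CPM in WT, 319 to 1270 in V, 18.0 to 1630 in VQ and 987 to 1362 in tVk12653. The smaller lists gave 1 of 2 tested megakaryocyte and 1 of 1 tested basophil markers lower in both comparisons. Dendritic cell markers had 1 of 4 tested higher and 2 lower in VQ and 2 lower in tVk12653, and stromal markers had 2 and 4 of 5 tested lower. Plasma cell markers had 2 of 8 lower in each. The part of these cells in the results on Socs3, Il9r and Il10ra was not tested.

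Other cytokine receptor chains numbered 25, of which 23 were tested. In VQ against WT 0 rose and 14 fell, with a list median of -2.75, where 17.3% of all genes were called higher and 15.1% lower. The largest falls were those of Il7r, of the interleukin-7 receptor (-8.42 ± 1.08, 0.000885), Il18r1, of the interleukin-18 receptor (-7.26 ± 0.98, 0.000828), and Il2rb, of the interleukin-2 and interleukin-15 receptors (-6.55 ± 1.00, 0.00147). Csf2rb, the chain shared by the receptors of interleukin-3, interleukin-5 and GM-CSF and the most abundant of the list, had a change of 0.18 ± 0.40 (0.754). Against WT, tVk12653 had 0 higher and 13 lower (list median -3.23). Il7r, at 5.40 to 31.3 CPM in WT and V, had 0 counts in 6 of the 7 transplant libraries. Many of these chains are genes of T, NK and myeloid cells, whose markers fell in the same libraries, and the part of those cells was not tested.

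Of 14 other growth factor receptors, 6 were tested in VQ against WT, where 17.3% of all genes were called higher and 15.1% lower. Of the 6, 1 rose and 2 fell (list median -1.26). Erbb3, a partner of the epidermal growth factor receptor family, rose by 2.08 ± 0.34 (0.00189), from 10.7 to 26.9 CPM in WT and V to 31.95 to 88.3 CPM in the transplant libraries, with no overlap. Flt3 and Kit, receptors of early blood cells, fell (-5.43 ± 0.94, 0.0027, and -3.81 ± 0.74, 0.00452). Tnfrsf13b, which encodes TACI and is the most abundant of the list, had a change of -0.83 ± 0.42 (0.154). The counts in tVk12653 against WT were also 1 higher and 2 lower, with Erbb3 up by 2.26 ± 0.36 (0.00237). Igf1r and Erbb3 were thus the receptor tyrosine kinase genes of these lists that rose in both models.

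Of the ligands of the interleukin-9 and interleukin-10 receptors, Il10 was the 1 found among the 3 listed symbols. Its levels were 24.65, 6.635 and 9.38 CPM for WT, 4.93, 11.7 and 7.79 for V, 0.767 to 6.19 in VQ, and 22.9 and 85.5 in tVk12653. Il10 rose in tVk12653 against V by 2.71 ± 0.75 (0.0287), was lower in VQ than in tVk12653 (-3.71 ± 0.76, 0.0163), and had a change of -1.71 ± 0.69 in VQ against WT (0.0822). Against WT its change in tVk12653 was 2.00 ± 0.73 and did not pass (0.0655), and the lower tVk12653 library lay below the highest WT library.

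**Figure D3:**
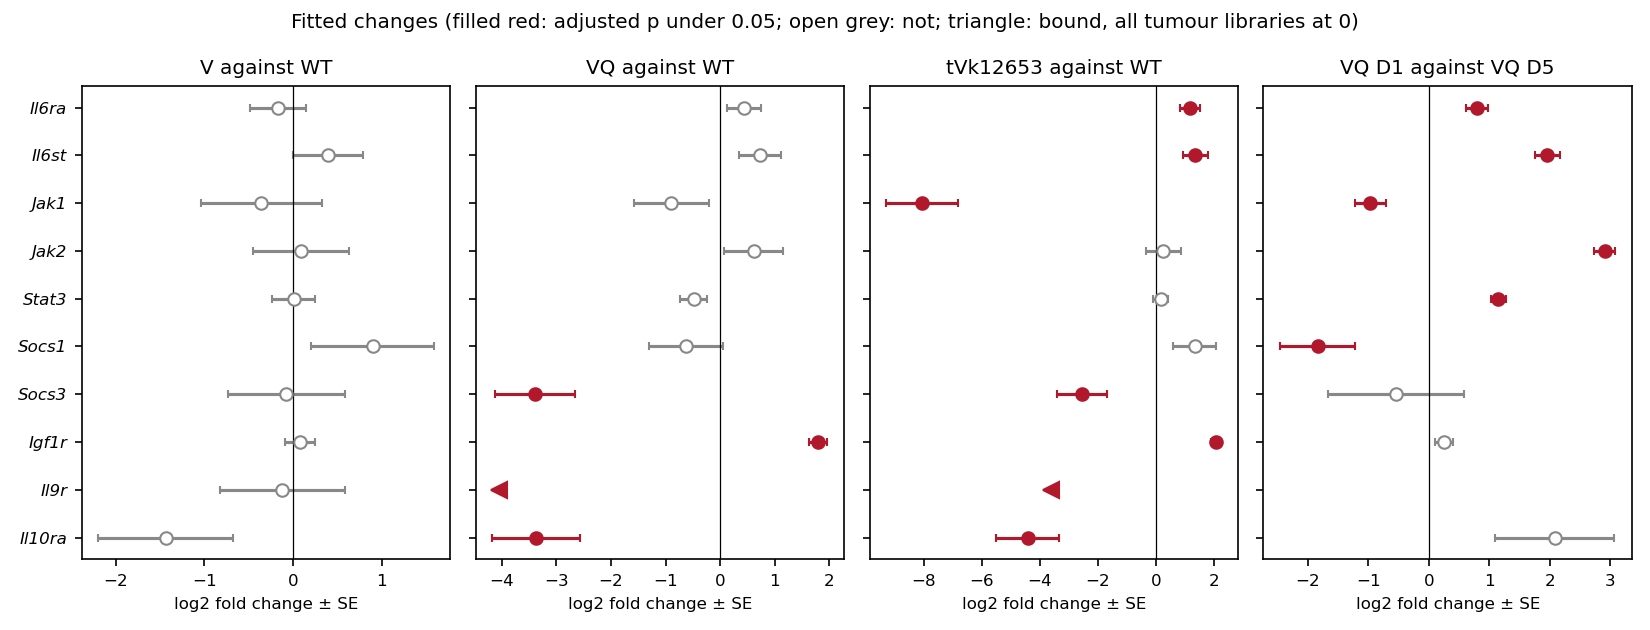
Fitted log2 fold change of each of the 10 genes with its standard error in 4 comparisons, on axes that differ between panels; filled red points passed an adjusted p of 0.05, open grey points did not, and triangles are lower bounds of the fall of Il9r, which has no value in VQ D1 against VQ D5. Against WT, Igf1r is higher in both models (1.80 in VQ and 2.07 in tVk12653), and Jak1 lies at -8.05 in tVk12653 alone.

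The transgene without transplantation was compared in V against WT. None of the 10 genes was called, none had an unadjusted p under 0.05, and the changes ran from -1.44 for Il10ra to 0.90 for Socs1 (adjusted p 0.987 to 1). Igf1r changed by 0.08 ± 0.16, Il6ra by -0.17 ± 0.31 and Stat3 by 0.01 ± 0.25. For all genes the test called 0 of 11933, with 628 at an unadjusted p under 0.05, and DESeq2 called 10 higher and 32 lower. The reported test did not use the replicate numbers. In alternative fits the numbers of WT and V were treated as pairs because of correlations between libraries, not because of a label. With the number as a block in a fit of these 6 libraries alone, 138 were higher and 341 lower, and 0 of the 10 were called.

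D1 and D5 are lines of the same genotype and differed in 6 of the 10 genes. Each was a single line sampled in 2 recipients. The p-values of this comparison therefore measure spread within groups, not spread between tumours of this genotype. With all 13 libraries fitted and each group given its own mean, 4 of the 10 genes were higher in D1 and 2 were lower, where 41.7% of 12835 genes were called (20.0% higher and 21.7% lower). Jak2 was 2.91 ± 0.17 higher in D1 (2.53e-08), Il6st 1.96 ± 0.21 (5.01e-06), Stat3 1.15 ± 0.13 (8.60e-06) and Il6ra 0.79 ± 0.18 (0.00289). These 4 are the receptor chains, a kinase and the transcription factor of the interleukin-6 path, and their calls were kept under each of the 19 alternatives. Jak1 (-0.97 ± 0.25, 0.00881) and Socs1 (-1.83 ± 0.62, 0.0285) were lower in D1. The call of Jak1 was lost without D1 replicate 1 (0.0515) or D5 replicate 1 (0.0539). That of Socs1 was lost without any one of the 4 libraries (0.0927 and 0.119 for D1 replicates 1 and 2, 0.0559 and 0.129 for those of D5). Igf1r did not pass (1.19-fold between the fitted means), nor did Il10ra (2.08 ± 0.98, 0.108), and Il9r was at 0 in both lines. Socs3, itself switched on by STAT3 but not on the list of STAT3-induced genes below, did not pass either (-0.54 ± 1.12, 0.732). It had 4 and 2 counts in the D1 libraries and 3 in each D5 library.

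Of the 15 genes induced by STAT3, 8 were higher in D1 than in D5 and 0 lower, where 20.0% of all genes were higher and 21.7% lower, and the other 7 did not pass the test. The median change of the 15 was 2.27 and that of all genes 0.05. Bcl2l1, which encodes the survival protein BCL-XL, was at 109.8 and 108 CPM in D1 and at 3.18 and 3.32 CPM in D5 (5.05 ± 0.52, 2.11e-05). The kinase gene Pim1 was at 595 and 541 CPM in D1 and 69.2 and 65.9 CPM in D5 (3.07 ± 0.25, 6.53e-07). Pim2, a related kinase gene, was at 111 and 89.5 CPM against 5.30 and 6.645 CPM (4.06 ± 0.36, 1.50e-06). Icam1, an adhesion gene, was at 142 and 137 CPM against 21.5 and 13.03 CPM (3.01 ± 0.21, 9.66e-08). Bcl3, Vegfa, Junb and Irf9 were the others that were higher. In D4, whose Stat3 level of 134 CPM lay between those of D1 and D5, Bcl2l1 was at 65.5 CPM, while Pim1 (62.8), Pim2 (3.79) and Icam1 (34.4) were nearer to D5. WT had 380.8 to 605 CPM of Pim1 and 21.9 to 38.3 CPM of Bcl2l1, so D5 lay below WT in both.

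**Figure D4:**
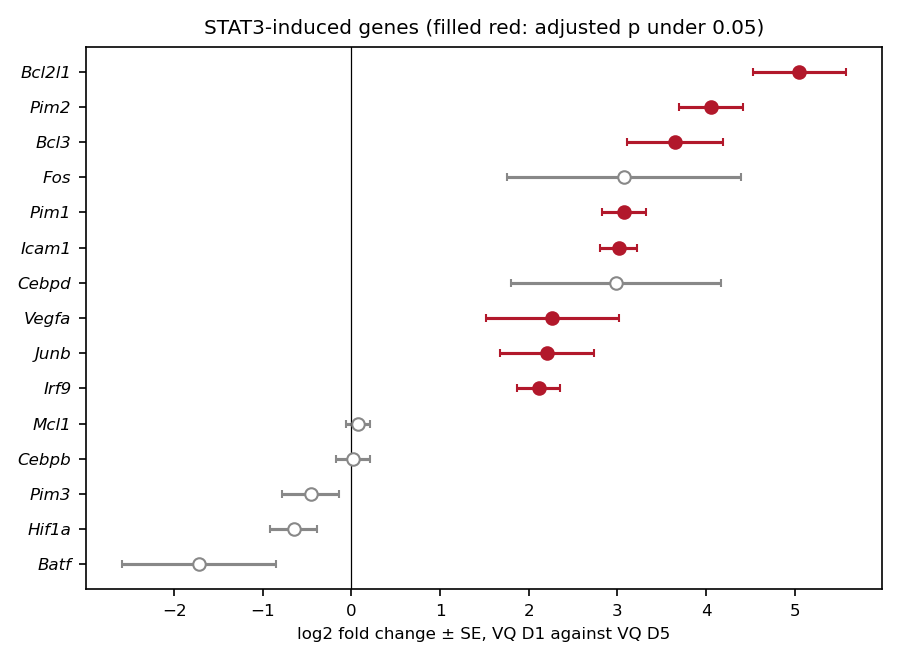
Log2 fold change with its standard error of the 15 STAT3-induced genes in VQ D1 against VQ D5; filled red points passed an adjusted p of 0.05. Bcl2l1 (5.05) and Pim2 (4.06) lead the 8 genes higher in D1, and none of the 15 is lower by the test.

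Markers of other cells also differed between these lines. The summed neutrophil markers were 1299 and 398 CPM in D1 and 92.5 and 146 CPM in D5 (9 of 14 higher, 0 lower), and the monocyte sums were 595 and 735 against 18.0 and 35.3 CPM (3 of 9 tested higher). D4, a single library, had a neutrophil sum of 93.0 CPM, near that of D5, and the highest monocyte sum of the 13 libraries (1630 CPM). Its Jak2 was at 234 CPM and its Il6st at 409 CPM. The part of these cells in the differences between lines was not tested. The other lists had, as higher and lower in D1, 3 and 1 of the 8 JAK and STAT genes, 7 and 3 of the 15 inhibitors, 1 and 4 of 8 tested genes of the insulin-like growth factor axis, 4 and 4 of 24 tested cytokine receptor chains, 1 and 1 of the 5 tested interleukin-6 family genes, and 3 and 1 of 9 tested growth factor receptors. The shares of all genes were 20.0% higher and 21.7% lower in D1. Insr was lower in D1 (-3.94 ± 0.37, 2.23e-06).

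Levels of different genes were compared per kilobase of exon. In WT the highest of the 10 was Jak1 (mean 35.7 CPM per kilobase), followed by Jak2 (24.2), Stat3 (22.0), Il6st (21.4), Igf1r (10.2), Il6ra (8.36), Il10ra (6.09), Il9r (2.70), Socs3 (2.34) and Socs1 (1.71). In tVk12653 Il6st (54.9) and Igf1r (42.6) led, and Jak1 (0.112) was below every gene but Il9r. Socs1, the lowest in WT, was at 4.36 in tVk12653.

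Considered one library at a time, the D1 recipients each had 4 of the 10 genes above the whole WT and V range (Il6ra, Il6st, Jak2 and Igf1r) and 5 below it. D4 had 3 above and 7 below, so all 10 of its values were outside, where 67.7% of all genes tested were outside in that library. The D5 recipients had 2 and 1 above and 6 below each, and the tVk12653 recipients 4 and 5 above and 4 below each. In the 7 libraries 31.6 to 34.3% of all genes tested were above the range and 34.0 to 39.7% below it, so values outside it were common. Igf1r was the gene of the 10 above the range in every one, and the sets of the 2 recipients of a line differed by Il6ra in D5 and by Stat3, Jak2 and Socs1 in tVk12653.

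As a description over the 11 units of the comparison of arms (log2 CPM, lines as 1 unit), which share library depth and cell make-up, the genes most like each of the 10 were as follows. Igf1r was most like Tspan4 (Pearson r = 0.981) and Sqle (0.978). Il9r was most like Ehd3 (0.989) and Prf1 (0.988), Il10ra like Ms4a6c (0.981), and Socs3 like Lck (0.941), which is on the T and NK cell list, and Il7r (0.932). Jak1 was most like Cdc42 (0.981) and Rtn3 (0.978), Jak2 like Ccdc84 (0.965) and Fuca2 (0.946), and Stat3 like Hivep1 (0.98) and Clec2i (0.97). Cdc42 itself ranged only from 105 to 201 CPM, with 161 CPM in D4, where Jak1 was at 22.05 CPM. Il6ra was most like Sis (0.956) and Ccdc141 (0.956), Il6st like Liph (0.969), and Socs1 like Atp5k (0.951) and Spef1 (0.941). Within the 10, the strongest relations were those of Igf1r with Il9r (-0.97), Il10ra (-0.856) and Socs3 (-0.818). Il6st had r = 0.741 with Jak2 and -0.729 with Jak1.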

How the data were processed

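Total RNA of 13 sorted bone marrow libraries was isolated with an RNeasy Micro kit, and sequencing libraries were built with a stranded SMARTer kit for low input, per the labels' protocols. STAR 2.6.1d and the build GRCm38.p6 are named in the submitters' processing notes. The authors deposited raw read counts per gene symbol, without normalization. How reads were assigned to genes (tool, annotation, strand, multi-mapped reads) is not given in the sources used here.

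Samples were grouped by the labels. From the deposited counts, low genes were removed by filterByExpr (at least 10 counts, total of at least 15), and counts were scaled by trimmed means of M values and tested with edgeR 4.0.16 (quasi-likelihood, robust, R 4.3.3), adjusted over all genes, at 0.05. The fit of arms had 11 units, with recipients of a VQ line summed, and the fit of 13 libraries had 1 mean per group for D1 against D5. The biological coefficients of variation were 0.409 and 0.195. CPM of single libraries use the factors of the 13 libraries. Floors and intervals cover counting error only. Exon lengths, strands, overlaps and the neighbours of Jak1 came from GENCODE on GRCm38. The spans of the 10 genes and the promoter windows came from RefSeq. Scripts were tested on simulated data.

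The 10 genes, the lists of pathways and markers and the tests were chosen with earlier results of these data known. Named were the 10 genes, the 3 largest called changes of each pathway list in VQ against WT, its most abundant gene, the 2 most abundant genes of marker lists and the 2 genes most like each of the 10. Other names were chosen after their values were seen. Results for a few of the genes so named are not reported here.

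Deviations from group means correlated at 0.125 to 0.19 between WT and V libraries of the same number (3 pairs). Those of different numbers were at -0.144 to -0.038, so the numbers of WT and V were treated as pairs in alternative fits. Same numbers were also higher, at smaller values, in tVk12653 with V (0.0469 to 0.0549 against -0.0549 to 0.0107). The same held for tVk12653 with D1 (0.0141 against -0.0141) and with D5 (0.0106 against -0.0106). Deviations are centred within each group, so values for same and different numbers depend on each other. Alternatives were other scaling factors, filters, DESeq2 1.42.0, samples in the fit, a replicate block, and leaving out each library or VQ line.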

Additional observations from a re-analysis of the deposited data

How the results depend on the processing

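Of the 25 called changes of the 10 genes, 14 were called in every alternative run. Counts of called genes among the 10 had 306 values under alternatives, of which 261 were within 1.5 times of the reported count. With 1 mean per group over all 13 libraries, and in the same fit with the replicate block, the higher and lower counts were 2 and 5 in VQ against WT and 2 and 6 in VQ against V, with 4 lower in tVk12653 against V and 4 lower in VQ against tVk12653. The block changed no other call in V against WT: with the paired numbers 0 of the 10 genes were called there, also in WT and V alone. A stricter filter of 30 counts left 1 lower in VQ against V, since Socs3 was not tested. DESeq2 gave 4 lower in tVk12653 against V. Fits of the groups compared alone gave 4 lower in tVk12653 against V and 0 higher in VQ against tVk12653. Without line D1, 4 were lower in VQ against V and 2 in VQ against tVk12653. Without line D5, 3 were higher in VQ against WT and 3 in VQ against V, 4 were lower in tVk12653 against V, and 2 were higher and 1 lower in VQ against tVk12653. Leaving out each library in turn gave 1 to 3 higher and 1 to 4 lower in tVk12653 against WT, 1 to 2 higher and 1 to 4 lower in tVk12653 against V, 1 to 2 higher in VQ against V, 0 to 1 higher in VQ against tVk12653, and 4 to 5 higher and 0 to 2 lower in D1 against D5, with no change in VQ against WT or V against WT. The cause of these shifts was not tested.

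Fitted changes turned in sign 22 times, each without a call. In V against WT these were Stat3 (-0.01283 with relative log expression factors, -0.01164 with DESeq2, -0.00212 with 1 mean per group, -0.00388 with the block, -0.000671 with the block in WT and V alone) and, with 1 library left out, Stat3 (-0.0587 to 0.0737, below 0 without WT replicate 2, -0.0182, or V replicate 1), Jak2 (-0.0125 to 0.217, below 0 without WT replicate 2, -0.000394, or V replicate 1), Socs3 (-0.489 to 0.339, above 0 without WT replicate 1, 0.075, WT replicate 2, 0.315, or V replicate 3) and Il9r (-0.539 to 0.568, above 0 without WT replicate 3 or V replicate 1, 0.225). Jak2 in VQ against tVk12653 was -0.133 with 1 mean per group, -0.153 with the block and -0.104 without line D1. Without line D1, Il6ra in VQ against WT was -0.0564, Il6st in VQ against V -0.168 and Il10ra in VQ against tVk12653 -0.0274. With 1 library left out, Socs3 in D1 against D5 ran from -1.71 to 0.461 (without D1 replicate 2), and Socs1 in tVk12653 against V from -0.674 (without tVk12653 replicate 2) to 1.08.

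Counts over all genes moved too. In V against WT, 0 were called, but 138 higher and 341 lower in WT and V alone with the block, 1 and 1 in the same fit without it (added after seeing the data), 43 and 48 with the block over all libraries, 17 and 7 with 1 mean per group and 1 and 2 with no filter. With 1 mean per group the counts were 3130 and 4229 in VQ against WT, 2991 and 3894 in VQ against V, 2886 and 3362 in tVk12653 against WT, 2714 and 3013 in tVk12653 against V, and 2319 and 2709 in VQ against tVk12653. In VQ against tVk12653 712 and 500 were reported, 7 and 19 in that fit alone and 1136 and 845 with DESeq2. Fits of 2 arms alone gave 1064 and 976 for VQ against WT (2065 and 1807 reported), 738 and 760 for VQ against V (1865 and 1474), 2422 higher for tVk12653 against WT (1501), and 2497 and 2749 for tVk12653 against V (1228 and 1543). Of 120 group means of the 10 genes under other scalings 8 moved by more than their spread, all in unscaled CPM. Depth limits the low genes: in the 7 transplant libraries Socs3 had 2 to 5 counts each, Il9r 0 in all, Il10ra as few as 1, and Jak1 7 and 0 in tVk12653.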

Other observations

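Line D5 expressed other receptors and inhibitors at levels seen in no other group; these genes were chosen after their values were seen. Lifr, which joins Il6st in the receptor of leukaemia inhibitory factor, was at 367 and 255 CPM in D5 and at 0 to 18.4 CPM in the other 11 libraries (D1 against D5 -7.26 ± 0.81, edgeR adjusted p = 0.000155). Socs2, an inhibitor of growth hormone signalling, was at 119 CPM in both D5 libraries, 15.3 to 39.4 CPM in WT and V and 0.231 to 2.06 CPM in the other transplant libraries (-6.23 ± 0.48, 5.68e-07). Il5ra, the interleukin-5 receptor chain, was at 264 and 208 CPM in D5 and at 4.71 to 116 CPM elsewhere (-5.22 ± 0.52, 2.94e-05). D5 thus had low Jak2, Il6st and Stat3 beside high Lifr, Socs2 and Il5ra.

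Genes beside Jak1 on chromosome 4 were read in the same libraries, also chosen after seeing the values. Raver2, which touches Jak1 and shares 4 exon bases with it, was at 1.41 to 6.40 CPM in WT and V and at 0 in both tVk12653 and both D1 libraries, but also at 0 and 0.53 CPM in D5, where Jak1 was within the WT range, and at 2.25 CPM in D4, where Jak1 was at 22.05 CPM. Pgm1, 1165 kb away, was at 6.47 and 6.16 CPM in tVk12653, 8.34 and 7.71 for the D1 recipients, 6.46 for D4, 33.1 and 41.7 for the D5 recipients and 18.25 to 40.1 in WT and V. Leprot, 382 kb away on the other side, was at 12.5 and 15.2 CPM in tVk12653 and 18.1 to 37.0 CPM in WT and V, while D5 had 14.1 and 15.4 CPM, D1 15.1 to 22.9 CPM and D4 38.35 CPM. Dnajc6, 231 kb away, was at 3.47 and 0.724 CPM in tVk12653, 0.974 to 8.11 CPM in WT and V, 6.39 to 13.5 CPM in D4 and D5, and 42.5 and 53.0 CPM in D1. Pgm1, like Jak1, was lower in tVk12653, D1 and D4 than in D5, WT and V. The levels of Raver2, Leprot and Dnajc6 did not follow those of Jak1 across the lines. Not every neighbour is given, and a shared cause was not tested.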
